A study of Mus musculus with 2 samples.

Results

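Genes of the tumour necrosis factor (TNF) superfamily, the TRAF adaptors, the caspases, the Bcl2 family and the Birc inhibitors of apoptosis were described in isolated Sertoli cell preparations with and without busulphan. The naming rule that picks the members uses no measured value, although it was set with earlier results of these data known. The members are the non-control probes whose gene name starts with Tnfsf or Tnfrsf, with Traf, Casp or Birc and a digit, or with Bcl2, or is Bax, Bak1 or Bid, leaving out Tnfrsf10b, Casp8 and Birc3. This gave 72 probes of 54 genes, among 11142 gene names carried by the array. Sertoli cells are somatic cells that support the germ cells inside the seminiferous tubules, and busulphan is an alkylating drug that depletes germ cells. The control preparation came from untreated male Swiss mice aged 3 months. The busulphan preparation came from males of the same strain and age, collected 1 month after 25 mg/kg body weight of the drug. Cells were freed with collagenase and hyaluronidase, held back on the finer of a pair of strainers and not cultured, and the labels do not give the number of mice in a preparation. One single-colour array was run for either preparation (n = 1 for both groups). The differences below therefore have no replicate check, none was tested and no p-value is given. Both arrays carry 1 scan time, but preparation, labelling and array cannot be told apart from the group.

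Ligands of the TNF superfamily bind trimeric receptors on neighbouring cells. The receptors recruit TRAF adaptors that activate NF-kappaB and kinase signalling, and some carry a death domain that engages initiator caspases. In a second route to the same executioner caspases, Bcl2 proteins set whether mitochondria release cytochrome c. Survival members hold the effectors Bax and Bak1 in check, and BH3-only members relieve that block. Birc proteins restrain caspases or, in some cases, serve cell division. In the testis these genes are known for the death of germ cells, which Sertoli cells clear, and for TNF signalling among somatic cells and macrophages.

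Of 15208 non-control probes, 12302 (80.9%) were well above background in the control and 12064 (79.3%) with busulphan, and the number of arrays limits the precision. Signals are background-subtracted intensities in arbitrary units. Ratios compare log2 signals after subtraction of each array's 75th percentile, busulphan minus control. Cell type markers also differed between the preparations. Among 14 Sertoli cell markers, 13 passed 2-fold upwards with busulphan and none downwards (median log2 ratio 3.09), with all 14 well above background on both arrays. The 8 spermatid markers were each lower by 2-fold or more (median log2 ratio -6.26), and 6 of them had saturated spots in the control. In such bulk RNA, fewer cells of a type and less RNA per cell cannot be told apart.

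Of the 54 members, 48 could be compared, because at least 1 of their probes was well above background on at least 1 array. Calls rest on size alone, a ratio of 2-fold or more in either direction. In the busulphan library 23 members (47.9%) were higher, beside 31.3% of all 9441 genes compared. Another 7 members (14.6%) were lower, beside 29.5% of all genes, and 18 did not pass 2-fold. Of these 18, 15 were measured on both arrays and the rest are bounds, which cannot place a gene within 2-fold. The median log2 ratio of the members was 0.94 (1.91-fold), and that of all genes 0.07. Among the 41 members well above background on both arrays, 19 were higher (46.3%) and 7 lower (17.1%). Of the 8407 genes of the whole array measured likewise, 32.9% were higher and 28.2% lower. The median of the 41 members was 0.89, beside 0.16 for those 8407 genes. The software's own error on the log2 ratio of these 41 had a median of 0.20. Scaling the arrays to the spike-in controls lowered measured ratios by 0.88 relative to the main scaling, with bounds that would turn over set to 0, and 14 members were then higher and 11 lower, with a median of 0.05 beside -0.81 for all genes. Of all member calls, 76.7% were in the higher direction with the main scaling and 56.0% with spike-in scaling, beside 51.5% and 25.8% of the calls over all genes.

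**Figure D1:**
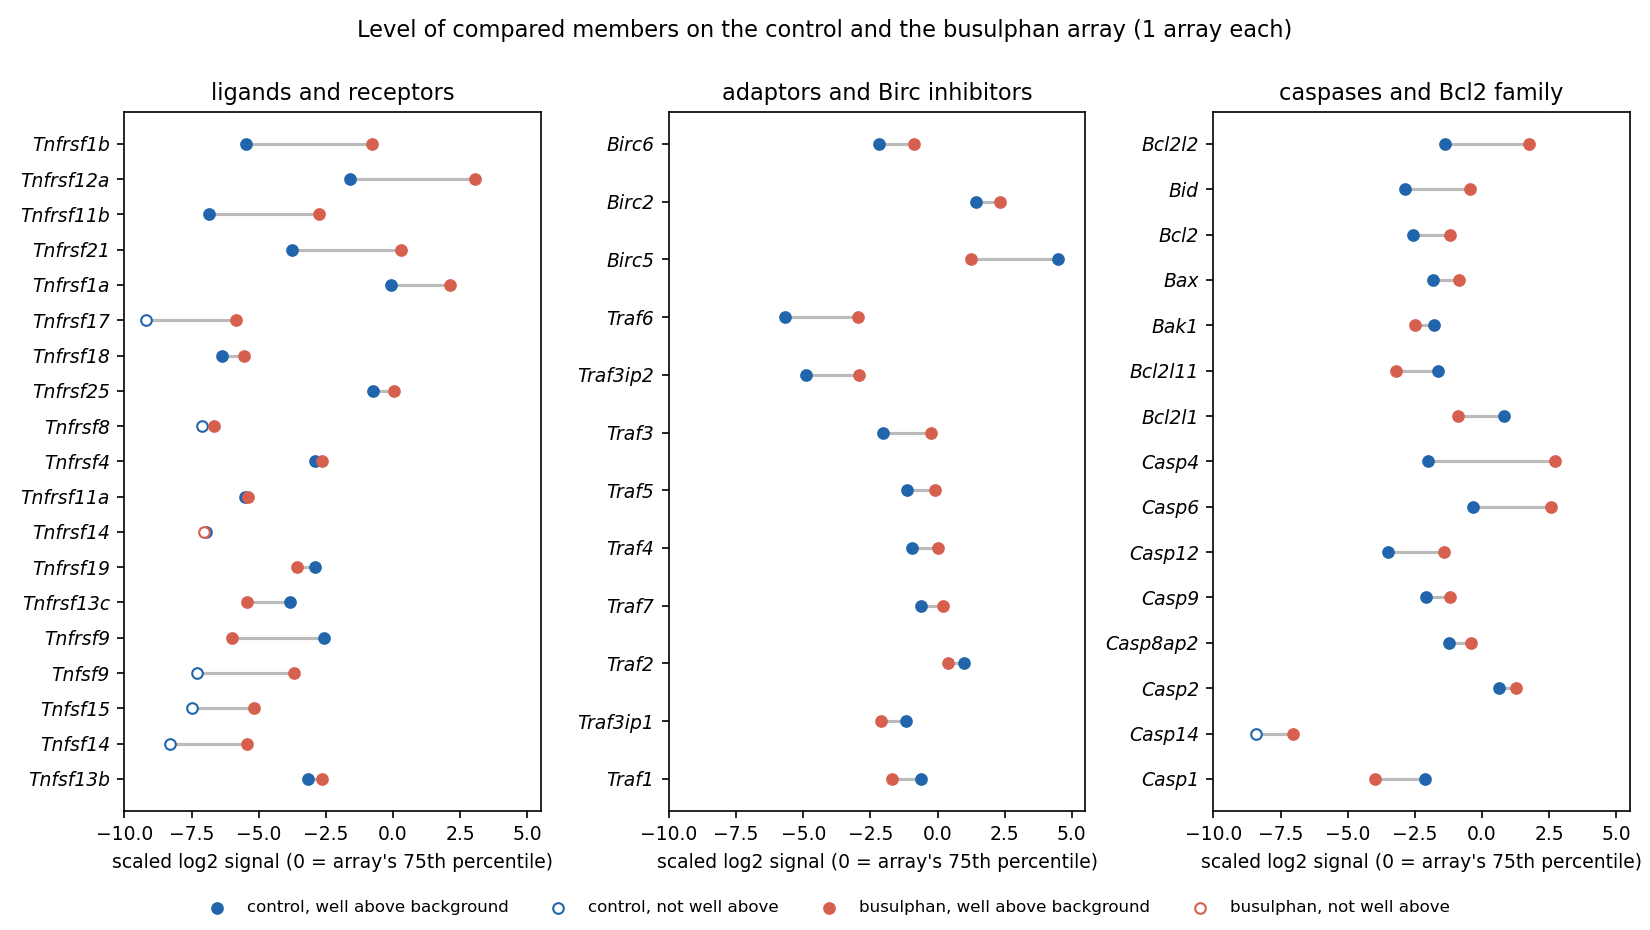
Scaled log2 signal of 46 of the 48 compared members on the control (blue) and busulphan (red) array, by role, where 0 is the array's 75th percentile and open circles are spots not well above background. Casp4, Tnfrsf1b and Tnfrsf12a, with log2 ratios of 4.74, 4.71 and 4.66, lie far to the right of their control values, and Birc5 and Tnfrsf9 lie to the left of theirs.

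The ligands were the dimmest role group. Of 9 Tnfsf genes on the array, 1 was well above background in the control and 4 were in the busulphan library. In the other role groups at least 13 of 16 genes, those of the receptors, were detected. Tnfsf9, the 4-1BB ligand that costimulates T cells, had a signal of 6.60 in the control, not well above background, and 69.5 in the busulphan library. It was at least 10.7-fold higher with the main values (log2 bound 3.42), while with normexp background correction the log2 bound was 1.12. Tnfsf15, the ligand of the death-domain receptor encoded by Tnfrsf25, had signals of 5.84 and 25.4 and was at least 3.91-fold higher. Tnfsf14, known as LIGHT, had signals of 3.29 and 21.0 and was at least 3.23-fold higher. These 3 genes passed the filter only through the busulphan array, so their direction was fixed by it. With normexp the log2 bounds of Tnfsf15 and Tnfsf14 were 0.65 and 0.53, within 2-fold, and with spike-in scaling that of Tnfsf14 was 0.81. Tnfsf13b, the B cell survival factor BAFF, was the ligand measured on both arrays, at 116 and 145, a log2 ratio of 0.53 (software error 0.21). Tnfsf4, Tnfsf8, Tnfsf10 (TRAIL), Tnfsf11 (RANKL) and Tnfsf12 (TWEAK) were not well above background on either array. Over the 10 member probes dim on both arrays, signals ran from 1.37 to 5.26.

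The receptors held the widest spread of the groups. Of 16 Tnfrsf genes, 15 were compared. Of these, 6 passed 2-fold upwards (40.0%, beside 31.3% of all genes) and 2 downwards (13.3%, beside 29.5%), while 7 did not pass it. Their median log2 ratio was 0.79 beside 0.07 for all genes, and with spike-in scaling -0.08 beside -0.81. Tnfrsf12a, the TWEAK receptor Fn14 that is induced in injured tissue, had a signal of 343 in the control and 7492 in the busulphan library. It was 25.2-fold higher, with a log2 ratio of 4.66 (software error 0.20). Tnfrsf21, the death-domain receptor DR6, went from 77.6 to 1097 and was 16.3-fold higher. Its log2 ratio was 4.03, a second probe had signals of 30.2 and 418, and a further probe, dim in the control, gave a bound of 2.84.

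Tnfrsf1a, the ubiquitous TNF receptor with a death domain, had signals of 983 and 3960.2 and was 4.66-fold higher. Tnfrsf11b, the secreted decoy receptor osteoprotegerin, had signals of 9.0 and 135 and was 17.3-fold higher, from a control spot just above background. With normexp its log2 ratio was 1.74 in place of 4.11. Tnfrsf17, the plasma cell receptor BCMA, had signals of 1.77, not well above background, and 15.7. It was at least 2.43-fold higher, a direction fixed by the filter, and its bound lay within 2-fold with normexp (log2 0.44) and spike-in scaling (0.39).

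Tnfrsf1b, the second TNF receptor, gave opposite readings from its 2 probes. The brighter one had signals of 23.3 and 526, a 26.1-fold higher value (log2 ratio 4.71). The other had 93.7 and 56.2, a log2 ratio of -0.53, and the median over the probes was 2.09. Both lie on the minus strand of chromosome 4 of mm9, 8562 bases apart at their starts. The first, at chr4:144804304-144804363, is one uninterrupted stretch of the genome, and the second, at chr4:144812866-144813439, spans 574 bases of the genome with its 60 bases. The first 30 bases of each are shown to identify them, 5′ to 3′ as in the files.
Tnfrsf1b, higher: gcaattgcactgtgtgctggacagaattcc
Tnfrsf1b, lower: ctggtgaactgcttcatcctggtgcagagg
The files do not say which exon or untranslated region a probe lies in, and the call for Tnfrsf1b rests on the first probe.

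Both lower receptors act on lymphocytes. Tnfrsf9, the receptor 4-1BB of activated T cells, had a signal of 178 in the control and 14.3 in the busulphan library, and was 10.7-fold lower. With normexp its log2 ratio was -1.59 in place of -3.42, and its second probe was not well above background on either array. Tnfrsf13c, the BAFF receptor of B cells, had 74.1 and 21.1 and was 3.04-fold lower, although with normexp the log2 ratio was -0.55, within 2-fold. Lymphocyte markers were lower as well, with 6 of 10 compared lower by 2-fold or more and 1 higher (median log2 ratio -1.44). With normexp 2 of the 10 were lower and 1 higher (median -0.35), and 4 of the 10 ratios are bounds. Their summed signal was 4046 in the control, 3467 of it from Cd3d, and 501 in the busulphan library. Of the 13 lymphocyte markers on the array, 5 were not well above background in the control, among them Cd8a, Cd79a and Klrb1c, and 5 were not in the busulphan library. The part of lymphocytes in these ratios was not tested.

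The 7 receptors not past 2-fold were Tnfrsf4, Tnfrsf8, Tnfrsf11a, Tnfrsf14, Tnfrsf18, Tnfrsf19 and Tnfrsf25, with log2 values from -0.66 for Tnfrsf19 to 0.80 for Tnfrsf18. Those of Tnfrsf8 (0.44) and Tnfrsf14 (-0.05) are bounds from spots near background, so they cannot place either gene within 2-fold. Tnfrsf11a, the receptor RANK, had signals of 22.9 and 21.6. Tnfrsf19, known as TROY, had 139.8 and 76.4, and with spike-in scaling its log2 ratio was -1.55, past 2-fold. Tnfrsf25 had 622 and 928 by its brighter probe, a log2 ratio of 0.79, and 0.06 by the other. Tnfrsf13b, a second BAFF receptor, was not well above background on either array.

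Values of 3 ligand and receptor systems, picked after they were seen, are set side by side. For the 4-1BB pair the ligand had a log2 bound of 3.42, in a direction fixed by the filter, and the receptor a log2 ratio of -3.42, and with normexp these were 1.12 and -1.59. For the TWEAK pair the ligand was not well above background on either array while its receptor Tnfrsf12a was 25.2-fold higher. For the RANKL system the ligand was likewise not above background, the receptor Tnfrsf11a had a log2 ratio of 0.12 and the decoy Tnfrsf11b one of 4.11, or 1.74 with normexp.

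**Figure D2:**
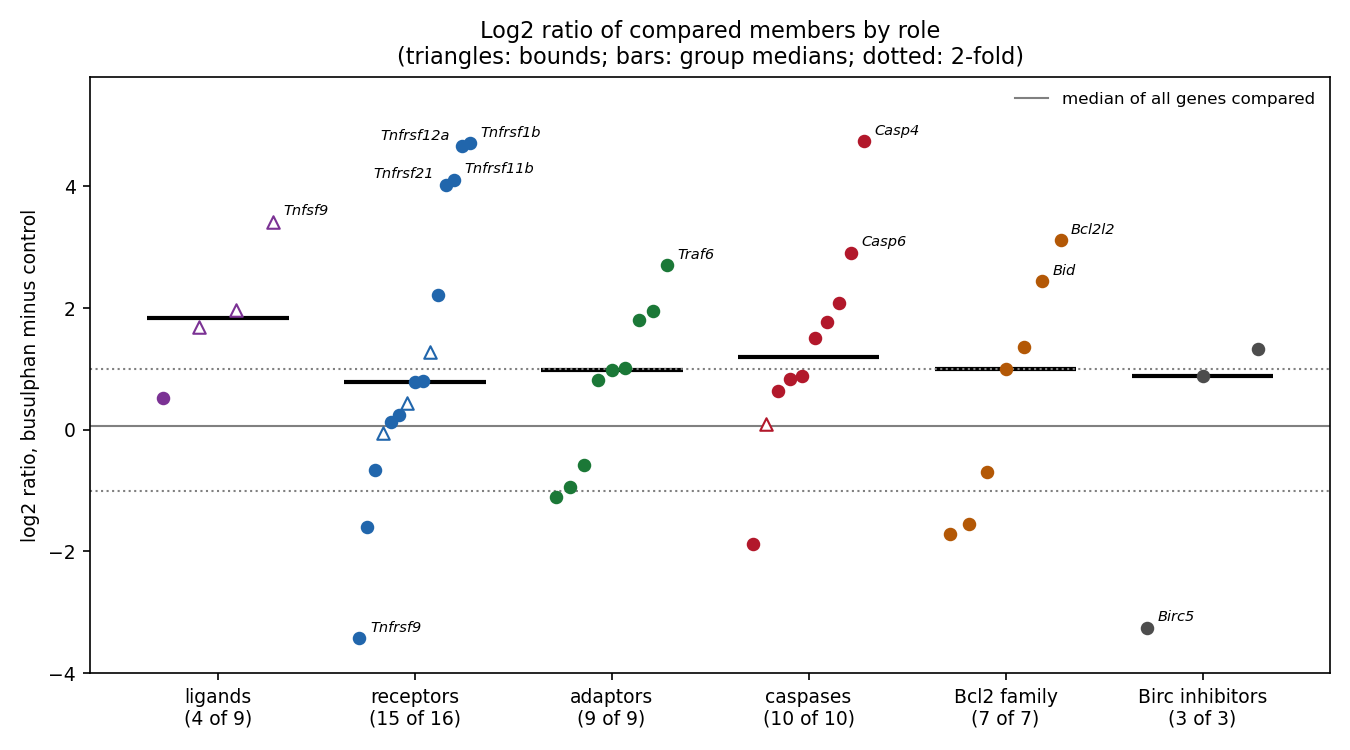
Log2 ratio (busulphan minus control) of the 48 compared members in 6 role groups, with each group's median as a bar, bounds as triangles and 2-fold as dotted lines. All group medians lie above the all-gene median of 0.07. That of the ligands rests on 4 genes, 3 of them bounds whose direction the filter fixed, and that of the Birc genes on 3. With spike-in scaling the receptor median of 0.79 became -0.08 while that of all genes became -0.81.

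The TRAF adaptors carry receptor signals to NF-kappaB. All 9 genes of this name were well above background on both arrays. Of these, 4 passed 2-fold upwards (44.4%, beside 31.3% of all genes), 1 passed it downwards (11.1%, beside 29.5%) and 4 did not pass. Their median log2 ratio was 0.98 beside 0.07 for all genes, and with spike-in scaling 0.10 beside -0.81. Without Traf3ip1, a protein of cilia, and Traf3ip2, the adaptor of the interleukin-17 receptor, 3 of 7 were higher (42.9%) and 1 lower (14.3%). The shares of all genes were 31.3% and 29.5%. Traf6, which also serves Toll-like and interleukin-1 receptors, had signals of 20.5 and 116 and was 6.55-fold higher. A second probe, dim in the control, gave a log2 bound of 2.61 beside 2.71, and with normexp the ratio was 1.37. A further Traf6 probe, with signals of 2.46 and 1.46, was not well above background on either array. Traf3, which restrains non-canonical NF-kappaB signalling, had 255 and 771 and was 3.50-fold higher, and with spike-in scaling its log2 ratio was 0.92. Traf3ip2 had 35.5 and 118 and was 3.86-fold higher, a log2 ratio of 1.95 that was 1.04 with normexp and 1.06 with spike-in scaling.

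Traf5 stood just past 2-fold, with signals of 482 and 841 and a log2 ratio of 1.01, and was within 2-fold with normexp, median, quantile or spike-in scaling. Traf4 stood just short of it, at 539 and 923 (log2 ratio 0.98), while its other probe gave 2.18. Traf2, the adaptor of both TNF receptors that binds Birc proteins, had 2050.4 and 1183, a log2 ratio of -0.58, and -1.47 with spike-in scaling. Traf1, an NF-kappaB target gene in lymphocytes, was the lower member, with 692 and 279 (2.14-fold). It lay within 2-fold with normexp (-0.84) or with scaling to probes bright on both arrays. Traf7 had a log2 ratio of 0.81.

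Traf3ip1 was also read differently by its 2 probes, though in 1 direction. The brighter probe, at chr1:93425305-93425364 of mm9, had signals of 465 and 209 and a log2 ratio of -0.94. The other, whose 60 bases span 1540 bases at chr1:93394548-93396087, had 149 and 10.5 and a log2 ratio of -3.62. The first 30 bases of the probe with the larger difference are shown to identify it.
Traf3ip1: ttcatgaagggcttctacacagatgctgag
Traf3ip1 and Tnfrsf1b were the members whose probes differed by a log2 ratio of more than 2. In all 11 members had several compared probes, 10 of these had all probes on the same side of 0, and the median range between their probes was 0.79. Over all 2644 genes with several compared probes, 1943 had them on 1 side of 0 and the median range was 0.81.

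**Figure D3:**
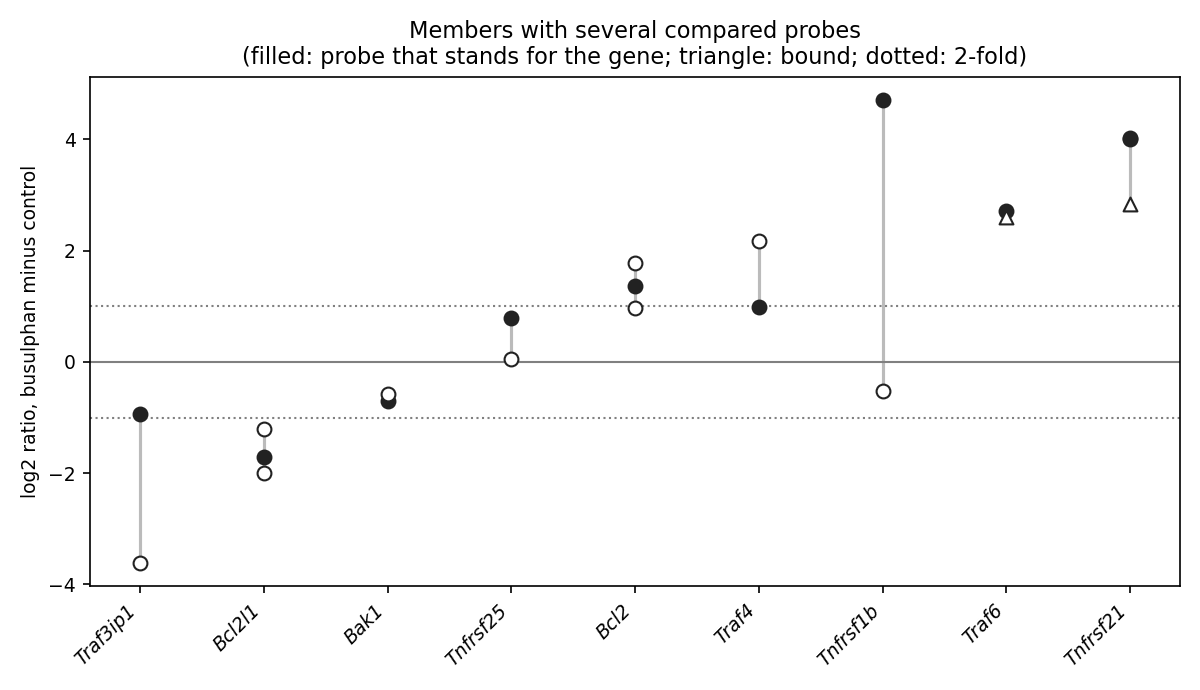
Log2 ratio of every compared probe for 9 of the 11 members with more than 1, where the filled symbol stands for the gene and triangles are bounds. The probes of Tnfrsf1b run from -0.53 to 4.71, those of Traf3ip1 from -3.62 to -0.94, and those of Bcl2l1 are all below -1.

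The caspases are proteases that cut proteins during cell death and inflammation. Of 10 genes of this name 5 passed 2-fold upwards, 1 passed it downwards and 4 did not pass. The shares of all genes were 31.3% upwards and 29.5% downwards. The median log2 ratio of the caspase group was 1.19 beside 0.07 for all genes. With spike-in scaling it was 0.31 beside -0.81, and with normexp 0.78 beside 0.12. The group includes Casp8ap2, a nuclear partner protein that is no protease, with signals of 442 and 685 and a log2 ratio of 0.84. The inflammatory caspases Casp1 and Casp4 and their neighbour Casp12 lie in 1 cluster on the plus strand of chromosome 9, with probes between 5306226 and 5372317 of mm9, and they did not share a direction. Casp4, the intracellular sensor of lipopolysaccharide also called caspase-11, had the highest log2 ratio of all members, 4.74. Its signal was 256 in the control and 5941 in the busulphan library (26.8-fold higher). Casp12 had signals of 92.7 and 341 and was 4.25-fold higher. Casp1, which processes interleukin-1 beta, had 239 and 56.6 and was 3.66-fold lower, a log2 ratio of -1.87, or -1.16 with normexp.

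The probes of this cluster are shown by their first 30 bases to identify them.
Casp1: ggttcgattttcatttgaacaaccagaatt
Casp4: tatgaattcaagaccagcctaagcaacaca
Casp12: actgtttgtctctggcatacatggttttca
The longest run of bases shared by any pair of these 60-base probes was 7. Over all 216 pairs of compared members within a role group it was 10. These runs compare probes with each other only, so they cannot show whether a probe also binds transcripts of another gene. The Casp1 probe spans 503 bases of the genome, while those of Casp4 and Casp12 are uninterrupted.

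Casp6, which cuts structural proteins of the dying cell, had signals of 834 and 5428 and was 7.52-fold higher (log2 ratio 2.91, and 2.03 with spike-in scaling). The 2 initiator caspases among the members lay within 2-fold with the main values, and Casp8 is left out by the naming rule. Casp2 had signals of 1626 and 2200.1 and Casp9, which the apoptosome activates, had 249 and 397, with log2 ratios of 0.64 and 0.88. With spike-in scaling these were -0.24 and 0.00. With scaling to probes bright on both arrays they were 0.82 and 1.05, the second past 2-fold. Casp14, a caspase of the skin, had 3.09, not well above background, and 6.96. Its log2 bound was 0.10, and 1.38 with measured values in place of bounds.

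Macrophages are known to express inflammatory caspases and TNF receptors. Of 12 macrophage markers compared, 8 passed 2-fold upwards and 2 downwards, and the median log2 ratio was 3.07. Their summed signal was 65887 in the control, of which the saturated spot of Aif1 gave 62716, and 7526 in the busulphan library. Cd163 was not well above background on either array, and Itgam was not in the control. Whether macrophage or Sertoli cell content accounts for any member's ratio was not tested.

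The Bcl2 family holds survival proteins, pore-forming effectors and BH3-only proteins. All 7 genes were well above background on both arrays. Of these, 4 were called higher (57.1%, beside 31.3% of all genes), 2 lower (28.6%, beside 29.5%) and 1 neither. The median log2 ratio was 1.00 beside 0.07 for all genes, and with spike-in scaling 0.12 beside -0.81. Among the survival proteins, Bcl2l2 (Bcl-w), which is needed for spermatogenesis, had a signal of 401 in the control and 3015 in the busulphan library, 8.69-fold higher. Its probe lies at chr14:55506584-55506643 of mm9, on the plus strand. Bcl2 had 176 and 391 and was 2.57-fold higher. Its other probes gave log2 ratios of 0.97 and 1.77, and with spike-in scaling the gene was at 0.48. Bcl2l1 (Bcl-x) had 1819 and 482 and was 3.26-fold lower. All 3 of its probes were lower, at log2 ratios of -1.21, -1.71 and -1.99, across 49099 bases of chromosome 2.

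Bax and Bak1 are the effectors that form the mitochondrial pore. Bax had signals of 291 and 505 and a log2 ratio of 1.00, at the 2-fold limit and within it with normexp, median, quantile or spike-in scaling. Bak1 had 303 and 161 and a log2 ratio of -0.70, or -1.59 with spike-in scaling, and a second Bak1 probe gave -0.57. Of the BH3-only genes, Bid, which caspases cleave to link death receptors to mitochondria, had 143 and 672 and was 5.42-fold higher. Bcl2l11 (Bim) had 334 and 98.8 and was 2.92-fold lower, and with normexp its log2 ratio was -1.01.

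The 3 Birc genes showed 1 member in each direction (33.3% each, beside 31.3% of all genes higher and 29.5% lower). Birc5 (survivin), which acts in chromosome segregation as well as in survival, had the brightest control spot of them. Its signal was 23237 in the control and 2121 in the busulphan library, 9.48-fold lower (log2 ratio -3.25). Its probe lies at chr11:117716959-117717018 of mm9, on the plus strand. Spermatocyte markers moved beside it, with 9 of 11 compared lower by 2-fold or more, none higher and a median log2 ratio of -2.09. Their summed signal was 227032 in the control, with 2 saturated spots, and 35696 in the busulphan library, and none was below background on either array. The part of germ cells in the Birc5 ratio was not tested. Birc6, a very large ubiquitin ligase, had 231 and 499 and was 2.49-fold higher (log2 0.44 with spike-in scaling). Birc2 (cIAP1), which works with TRAF2, had 2807 and 4498 and a log2 ratio of 0.89, and was past 2-fold with quantile scaling or scaling to probes bright on both arrays.

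Promoters of the members were searched for an NF-kappaB motif, GGGA followed by any 2 bases and TTCC, on either strand, in the 250 bases before each start in the RefSeq promoter table of GRCm38.p6. The table held 47 of the 54 members, with 56 promoters, of which 1 had a match (1.79%). Over all 32851 promoters of the table, 397 had one (1.21%). The match lay before Birc5 and began 44 bases before its start. The 250 bases searched there lie at chr11:117848987-117849236 of that build, on the plus strand. This window is shown because it holds the only match among the members, with the matching letters in capitals.
Birc5: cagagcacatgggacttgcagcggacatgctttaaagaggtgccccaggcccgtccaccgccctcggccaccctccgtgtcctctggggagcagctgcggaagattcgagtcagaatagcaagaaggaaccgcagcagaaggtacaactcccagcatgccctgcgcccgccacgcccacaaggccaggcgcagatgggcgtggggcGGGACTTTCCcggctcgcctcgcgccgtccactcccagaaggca
The other 46 members of the table had no such letters in this window.

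Genes of the pathway outside the naming rule were taken from 3 lists. Of 19 adaptor, kinase and NF-kappaB genes compared, 13 passed 2-fold upwards (68.4%, beside 31.3% of all genes) and 1 downwards (5.26%, beside 29.5%). The median log2 ratio was 2.25 beside 0.07 for all genes, and with spike-in scaling 1.36 beside -0.81. Nfkb1 and Nfkb2, which encode NF-kappaB subunit precursors, had signals of 249 and 2547 and of 165 and 1686, and each was 11.8-fold higher. Relb, the partner of the Nfkb2 product, went from 713 to 5741 and was 9.30-fold higher. Map3k7, the kinase TAK1 downstream of TRAF6, was 4.05-fold lower. Ripk3, a kinase of necroptosis, had a log2 ratio of -0.32, and Chuk, an IkappaB kinase, had 0.74 by its brighter probe and 0.21 by the other.

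Of 17 genes of the mitochondrial arm and of death effectors, 11 were higher (64.7%, beside 31.3% of all genes) and 2 lower (11.8%, beside 29.5%). Their median log2 ratio was 1.77. With spike-in scaling 6 were higher and 4 lower, beside 16.1% and 46.4% of all genes, and the median was 0.89 beside -0.81. Pycard, the inflammasome adaptor ASC that recruits caspase-1, had signals of 166 and 1052 and was 7.32-fold higher, while Casp1 itself was lower. Cycs, cytochrome c of somatic cells, was 5.96-fold higher with 3974 and 20485. Bbc3, the BH3-only protein PUMA, was 5.29-fold higher. Diablo, which frees caspases from Birc proteins, had 27028 and 4366 and was 5.36-fold lower. Bad, another BH3-only gene, was 3.83-fold lower by one probe and had a log2 ratio of 0.31 by another, and Bmf had -0.59.

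Of 14 other ligands and receptors compared, 5 were higher (35.7%, beside 31.3% of all genes) and 4 lower (28.6%, beside 29.5%), with a median log2 ratio of 0.67. Counts were 2 higher and 3 lower with normexp, and 2 and 5 after spike-in scaling, when the median was -0.21 beside -0.81 for all genes. Fas, a receptor that triggers apoptosis, had signals of 219.8 and 5662, 29.8-fold higher, and another probe at a log2 ratio of 2.72. Its ligand Fasl was 7.81-fold lower, a log2 ratio of -2.97 that was -1.43 with normexp, and another probe gave -1.25. Ngfr, the neurotrophin receptor p75, had 3185 and 164 and was 16.8-fold lower, with another probe at -1.63. Edar, the ectodysplasin receptor, was 6.40-fold lower and Eda2r, a related receptor, 3.72-fold higher, although the other Eda2r probe gave a log2 ratio of 0.11. With normexp their log2 ratios were -1.07 for Edar and 0.54 for Eda2r, the second within 2-fold. Ltbr, the lymphotoxin receptor that also binds Tnfsf14, was 3.36-fold higher. Tnf itself, named here after its value was seen, had 405 and 626 and a log2 ratio of 0.84.

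**Figure D4:**
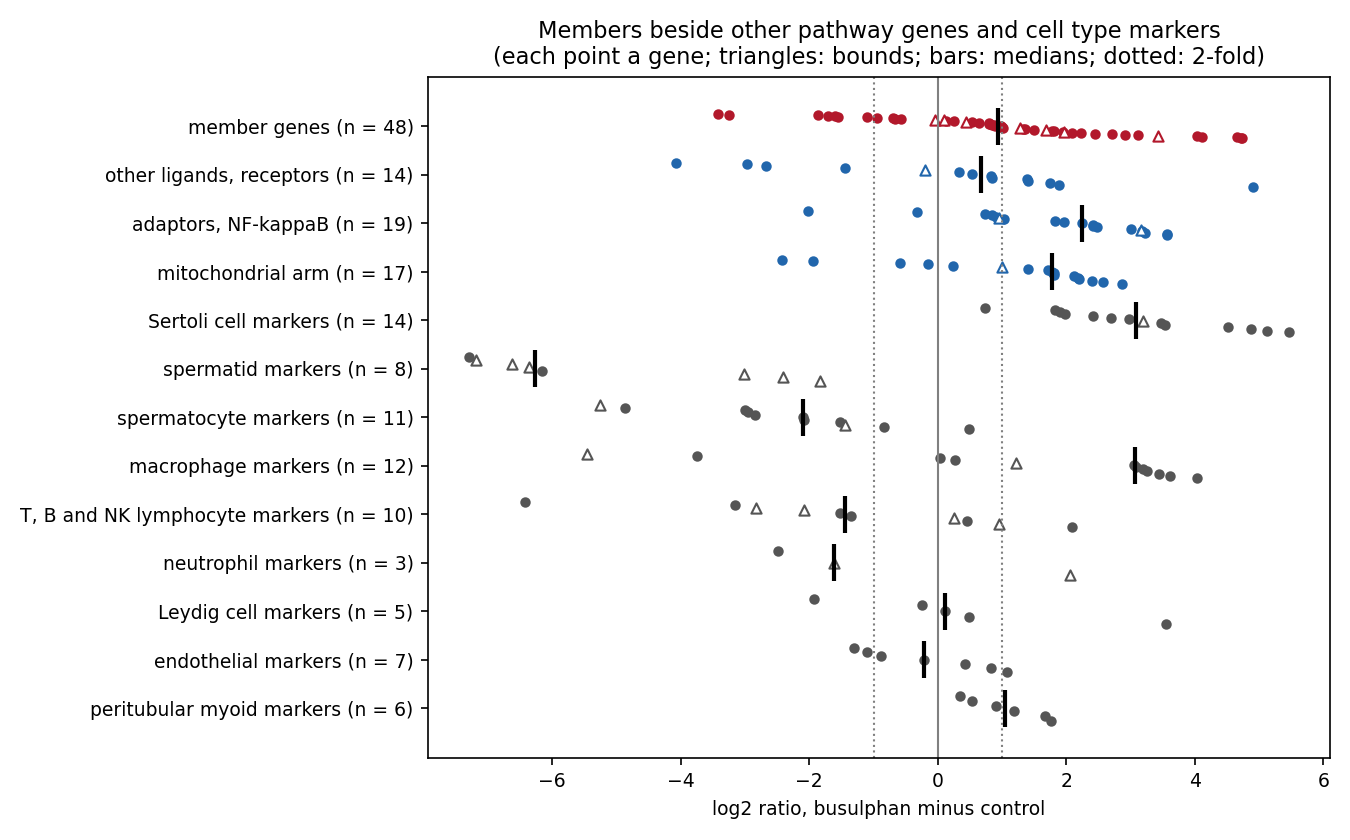
Log2 ratio (busulphan minus control) of the members (red), other pathway genes (blue) and cell type markers (grey), each point a gene, with medians as bars, bounds as triangles and 2-fold as dotted lines. The adaptor and NF-kappaB list has a median of 2.25 and the members one of 0.94, between the Sertoli cell markers at 3.09 and the spermatocyte markers at -2.09, and with spike-in scaling the median of the other ligands and receptors went from 0.67 to -0.21 while that of all genes went from 0.07 to -0.81.

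Over the scalings, background corrections and filters tried, 13 of the 23 higher members and 5 of the 7 lower ones stayed past 2-fold wherever they had a value. The 13 were Bcl2l2, Bid, Casp4, Casp6, Casp12, Tnfrsf1a, Tnfrsf1b, Tnfrsf11b, Tnfrsf12a, Tnfrsf21, Tnfsf9, Traf3ip2 and Traf6. Tnfsf9 is a bound whose direction the filter fixed, and it had no value under the filter that asks for detection on both arrays. Tnfrsf1b is listed by its brighter probe or the median over its probes, while its other probe gave a log2 ratio of -0.53. The 5 were Bcl2l1, Bcl2l11, Birc5, Casp1 and Tnfrsf9. No member called higher or lower changed sign, while 9 of the 18 within 2-fold did. This contrast was largely fixed in advance and is no check on direction. A call needs a log2 ratio of at least 1 in size, and the largest median shift from a change of scaling was -0.88. Such a shift cannot turn a call over, whereas it can turn smaller ratios. Bounds that would turn over were also held back, except where measured values replaced them.

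**Figure D5:**
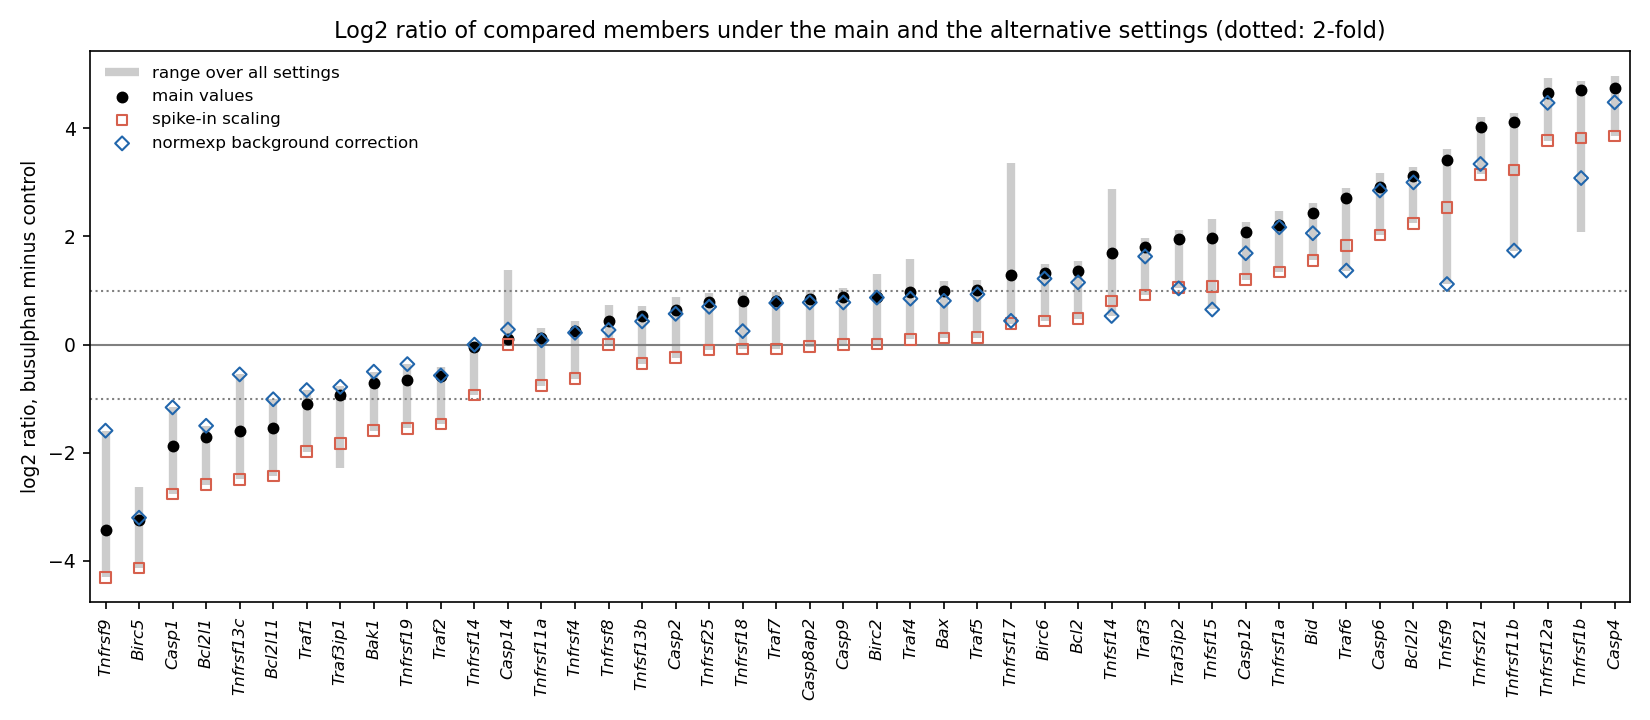
Log2 ratio of 46 of the 48 compared members with the main values (black), spike-in scaling (red squares) and normexp background correction (blue diamonds), with the range over all settings in grey and 2-fold as dotted lines. Casp4 stayed between 3.86 and 4.97 and Birc5 between -4.13 and -2.64, while dim members such as Tnfrsf11b ranged from 1.74 to 4.29.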

How the data were processed

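The authors deposited intensity values from the Agilent Feature Extraction software, version 11.5.1.1 in the file headers. It had subtracted a fitted background, corrected a slope over the slide and put surrogates in place of the dimmest signals. The authors' deposited log2 table equals log2 of these signals minus a constant of 10.03 for control and 9.82 for busulphan, near each array's 75th percentile, with medians of -2.94 and -2.77. Its scale and direction are thus known, and its genes are not centred.

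From the processed signals, log2 ratios were computed after subtracting each array's 75th percentile over non-control probes. The 4 probes with outlier flags were left out. A gene took its brightest compared probe. Where a spot was not well above background on 1 array, its value was the higher of its own signal and the lowest signal well above background there, and the result is a bound. Saturated spots also give bounds. A bound pointing the other way entered as 0.

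Names came from accessions through a RefSeq table of GRCm38.p6 for 13300 probes, without versions, and 1908 kept the files' name. Probe coordinates, on mm9, were taken from the files. The members and lists were chosen with earlier results of these data known. In each role group the 4 highest and 3 lowest ratios were named, with a fixed set of well-known members and those whose probes differed by a log2 ratio over 2, and in each pathway list the 3 highest and 3 lowest. The remaining members are given too, but 2 members, counted in every group and list, and 1 probe sequence are not reported here. The caspase probes shown were chosen after values were seen. Alternatives were normexp (limma 3.58.1, offset 50), scaling to the median, quantiles, probes bright on both arrays or 6 spike-in probes, other filters, measured values for bounds, the median over probes, the deposited table, and thresholds of 1.5-fold and 4-fold. The ratio calculation was tested on simulated data. Python 3.11.15 was used.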

Additional observations from a re-analysis of the deposited data

How the results depend on the processing

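With spike-in scaling 14 members passed 2-fold upwards and 11 downwards, and the median log2 ratio was 0.05, beside 16.1% and 46.4% of all genes and a median of -0.81. At a threshold of 4-fold 12 were higher and 2 lower, beside 14.4% and 17.7% of all genes. Under the other alternatives the count of higher members ran from 17 (normexp) to 31 (1.5-fold), the count of lower ones from 5 to 10, and the median from 0.74 to 1.11. The cause of the shift with spike-in scaling was not tested. Relative to the main scaling, the median shift in log2 ratio was -0.17 with the array median, 0.05 with quantiles and 0.18 with probes bright on both arrays. Folds of dim members depend on the background correction, since signals count as well above background from 7.50 in the control and from 6.26 in the busulphan library. No paired analysis was possible because each group has 1 array, and for the same reason no replicate could be left out.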

Other observations

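Some members have probes within 100 kb of each other in the genome, and their values are given side by side. Besides the caspase cluster, the probes of Tnfsf9 and Tnfsf14 on chromosome 17 are 82612 bases apart on mm9, and their log2 bounds were 3.42 and 1.69. Those of Tnfrsf1b and Tnfrsf8 on chromosome 4 are 78218 bases apart, with log2 values of 4.71 (-0.53 by the other Tnfrsf1b probe) and 0.44, the second a bound. Tnfrsf4 and Tnfrsf18, 12154 bases apart on the same chromosome, had log2 ratios of 0.25 and 0.80, which were 0.22 and 0.25 with normexp and -0.63 and -0.08 with spike-in scaling.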
